A study of Mus musculus with 34 samples.

Results

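The LIM-homeobox genes studied here were Lhx1, Lhx2, Lhx3, Lhx4, Lhx5, Lhx6, Lhx8, Lhx9, Lmx1a and Lmx1b, and what was measured was the DNA methylation of the CpG islands that carry their names on a mouse CpG island microarray. Islands were taken as members by gene name alone, and the family was chosen with earlier results of these data known. Neighbouring probes with gaps of at most 500 bases were joined into islands, and an island was scored if it held at least 3 probes. This gave 168 probes in 28 islands, of which 26 were scored, out of 13659 islands scored on the array. Probes carried the names of 9 of the 10 genes, and no probe carried the name Lhx4. The remaining 2 islands, 1 of Lmx1a with 1 probe and 1 of Lmx1b with 2 probes, were not scored.

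DNA was sheared, denatured and precipitated with an antibody against 5-methylcytidine (mDIP), and the bound fraction, labelled with Cy5, was hybridised against input DNA, labelled with Cy3. On each array the log ratio of every probe was turned into a Z score over all probes, and the island methylation score is the mean Z of an island's probes. A score above 0.75 is the study's mark of a methylated island and a score below 0 that of an unmethylated one. The study computed its Z scores according to the melting temperature (Tm) of the probes. That step was not taken here, so the study's marks are applied to a somewhat different score. The score follows enrichment, which also rises with the number of CpG sites under a probe, so scores were compared between samples at 1 island and not between islands.

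The 34 arrays fell into 8 groups. Adult tissue comprised 16 arrays, 2 each labelled colon, pancreas, brain, kidney, liver, lung, muscle and spleen, from C57Bl/6 mice 3 months of age, and 5 arrays held whole embryos of 8.5, 9.5, 10.5, 11.5 and 12.5 dpc (days post coitum), 1 array per stage. Undifferentiated embryonic stem (ES) cells gave 1 array for each of EB5, J1 and TT2. Differentiated ES cells gave 5 arrays, 1 of embryoid bodies grown from TT2 without LIF, 1 of TT2 cells treated with retinoic acid, 2 of endoderm and 1 of mesoderm sorted from EB5 cells after Activin A. The endoderm and mesoderm came from 1 reporter line, which marks Gsc by GFP and Sox17 by CD25, so both fractions share that clone. Teratomas, tumours grown from ES cells injected into NOD-SCID mice, gave 2 arrays labelled J1. The remaining 3 arrays held ex vivo beta cells, sorted with anti-insulin antibodies from the islets of Pdx1-GFP mice, the beta cell line Min6 and the alpha cell line aTC. The study's methods name a different line from the label for the retinoic acid cells and for the teratomas. Groups and cell lines with 1 array have no replicate, and where the labels do not say that replicates were separate animals or cultures, p-values cover only the spread between these arrays, which may be technical.

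LIM-homeobox proteins are transcription factors with a DNA-binding homeodomain and a pair of LIM zinc-finger domains, through which they bind Ldb cofactors. They come in closely related pairs, Lhx1 with Lhx5, Lhx2 with Lhx9, Lhx3 with Lhx4, Lhx6 with Lhx8 and Lmx1a with Lmx1b, and set the identity of neurons and of organ primordia in the embryo. Genes of this kind lie in dense clusters of CpG islands that usually stay free of methylation in normal tissue and are held silent by Polycomb where they are not used. mDIP measures methylation and says nothing on transcription.

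By the distances given in the array's annotation, 9 islands lay with a probe within 500 bases of an annotated gene start, 1 for each gene on the array, 3 lay further upstream and 14 inside the gene. Islands are numbered here from the 5′ end of each gene. The files give probe positions in mm9. The annotation does not separate exons from introns, and none was used here. The start islands were Lhx1 island 1 (chr11:84338370-84339799), Lhx2 island 2 (chr2:38206600-38207518), Lhx3 island 1 (chr2:26061806-26062435), Lhx5 island 2 (chr5:120881905-120882552), Lhx6 island 1 (chr2:35958973-35960831), Lhx8 island 1 (chr3:153990961-153993058), Lhx9 island 2 (chr1:140737962-140738718), Lmx1a island 1 (chr1:169618425-169619435) and Lmx1b island 2 (chr2:33494620-33496884). Not every start island spans the start. By probe distance, those of Lhx5, Lhx8 and Lhx9 lay 18 to 621, 490 to 2541 and 332 to 1035 bases inside the gene. That of Lmx1a lay 275 to 1241 bases before the start. The number of probes per scored island ran from 3 to 14 with a median of 5.

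RefSeq promoter sequences (GRCm38.p6, 250 bases before to 50 bases after a start) were held for 9 of the 10 genes, all but Lhx5. They are shown for 3 starts whose islands were measured across the start itself, Lhx3, whose start island was high in ES cells, and Lhx1 and Lhx2, whose start islands were not. CpG sites (the letters CG, found on both strands at once) are in capitals. Lhx3 and Lhx2 each have 2 RefSeq starts, and the windows shown are the more 3′ one of each. They are the only pair whose spacing, 12144733 bases, differed by as little as 27 bases from that of the annotated starts on the array, 12144706 bases, the other pairs being off by 1647 to 13674 bases. The Lhx3 window is chr2:26206526-26206825 on the minus strand, the Lhx1 window chr11:84525485-84525784 on the minus strand and the Lhx2 window chr2:38351058-38351357 on the plus strand.
Lhx3: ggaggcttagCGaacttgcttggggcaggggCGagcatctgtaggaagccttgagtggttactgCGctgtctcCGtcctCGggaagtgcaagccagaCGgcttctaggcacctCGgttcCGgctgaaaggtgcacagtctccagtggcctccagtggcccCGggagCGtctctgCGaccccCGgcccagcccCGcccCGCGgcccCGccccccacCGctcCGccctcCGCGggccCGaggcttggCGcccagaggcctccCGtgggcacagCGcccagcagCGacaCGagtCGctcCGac
Lhx1: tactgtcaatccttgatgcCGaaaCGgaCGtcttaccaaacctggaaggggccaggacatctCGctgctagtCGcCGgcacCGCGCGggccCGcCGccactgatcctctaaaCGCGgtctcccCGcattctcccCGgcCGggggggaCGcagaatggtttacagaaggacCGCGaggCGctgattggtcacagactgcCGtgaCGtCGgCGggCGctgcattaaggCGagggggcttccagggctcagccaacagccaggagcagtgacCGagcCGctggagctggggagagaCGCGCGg
Lhx2: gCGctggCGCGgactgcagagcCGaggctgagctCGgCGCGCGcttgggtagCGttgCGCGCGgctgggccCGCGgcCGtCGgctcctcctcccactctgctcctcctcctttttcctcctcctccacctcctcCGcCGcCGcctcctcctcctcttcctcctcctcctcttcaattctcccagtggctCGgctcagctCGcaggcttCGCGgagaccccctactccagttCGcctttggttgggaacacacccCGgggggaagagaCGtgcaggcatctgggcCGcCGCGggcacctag
The Lhx3 window held 28 CG, the Lhx1 window 31 and the Lhx2 window 29. Of all 32851 promoter windows 14.2%, 10.6% and 12.9% held at least as many, and the median window held 7.

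Several arrays went against their labels, and this bears on the results below. Among the 16 adult arrays, compared over the 1328 most variable autosomal islands, only those labelled colon (r = 0.88) and pancreas (r = 0.57) were most alike to their own replicate. The other 12 were each most alike to an array of another tissue, among them brain 1 and liver 2 (r = 0.50), brain 2 and liver 1 (r = 0.51), kidney 1 and spleen 2 (r = 0.72), kidney 2 and spleen 1 (r = 0.44), and lung 1 and muscle 2 (r = 0.54), and their correlation with their own replicate lay below 0. Arrays 1 of brain and liver shared a slide, as did arrays 1 of kidney and spleen, arrays 2 of kidney and spleen, and arrays 1 of lung and muscle. The array labelled J1 was most alike to the pancreas arrays (r = 0.83 and 0.60) and not to EB5 or TT2 (r = -0.066 and -0.086), and the deposited processed column for J1 correlated by 0.11 with its own scanner file, against 0.89 to 0.99 for the other arrays. Islands on the X chromosome scored above autosomal ones by 0.92 to 1.86 on adult arrays labelled female and by 0.11 to 0.26 on those labelled male, and by 1.03 and 1.16 on the embryo arrays of 8.5 and 9.5 dpc, which are labelled male. No array was moved to another group; pooled adult tissue does not depend on which tissue an adult array held, comparisons between tissues do, and results with undifferentiated ES cells are given with and without the array labelled J1.

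**Figure D1:**
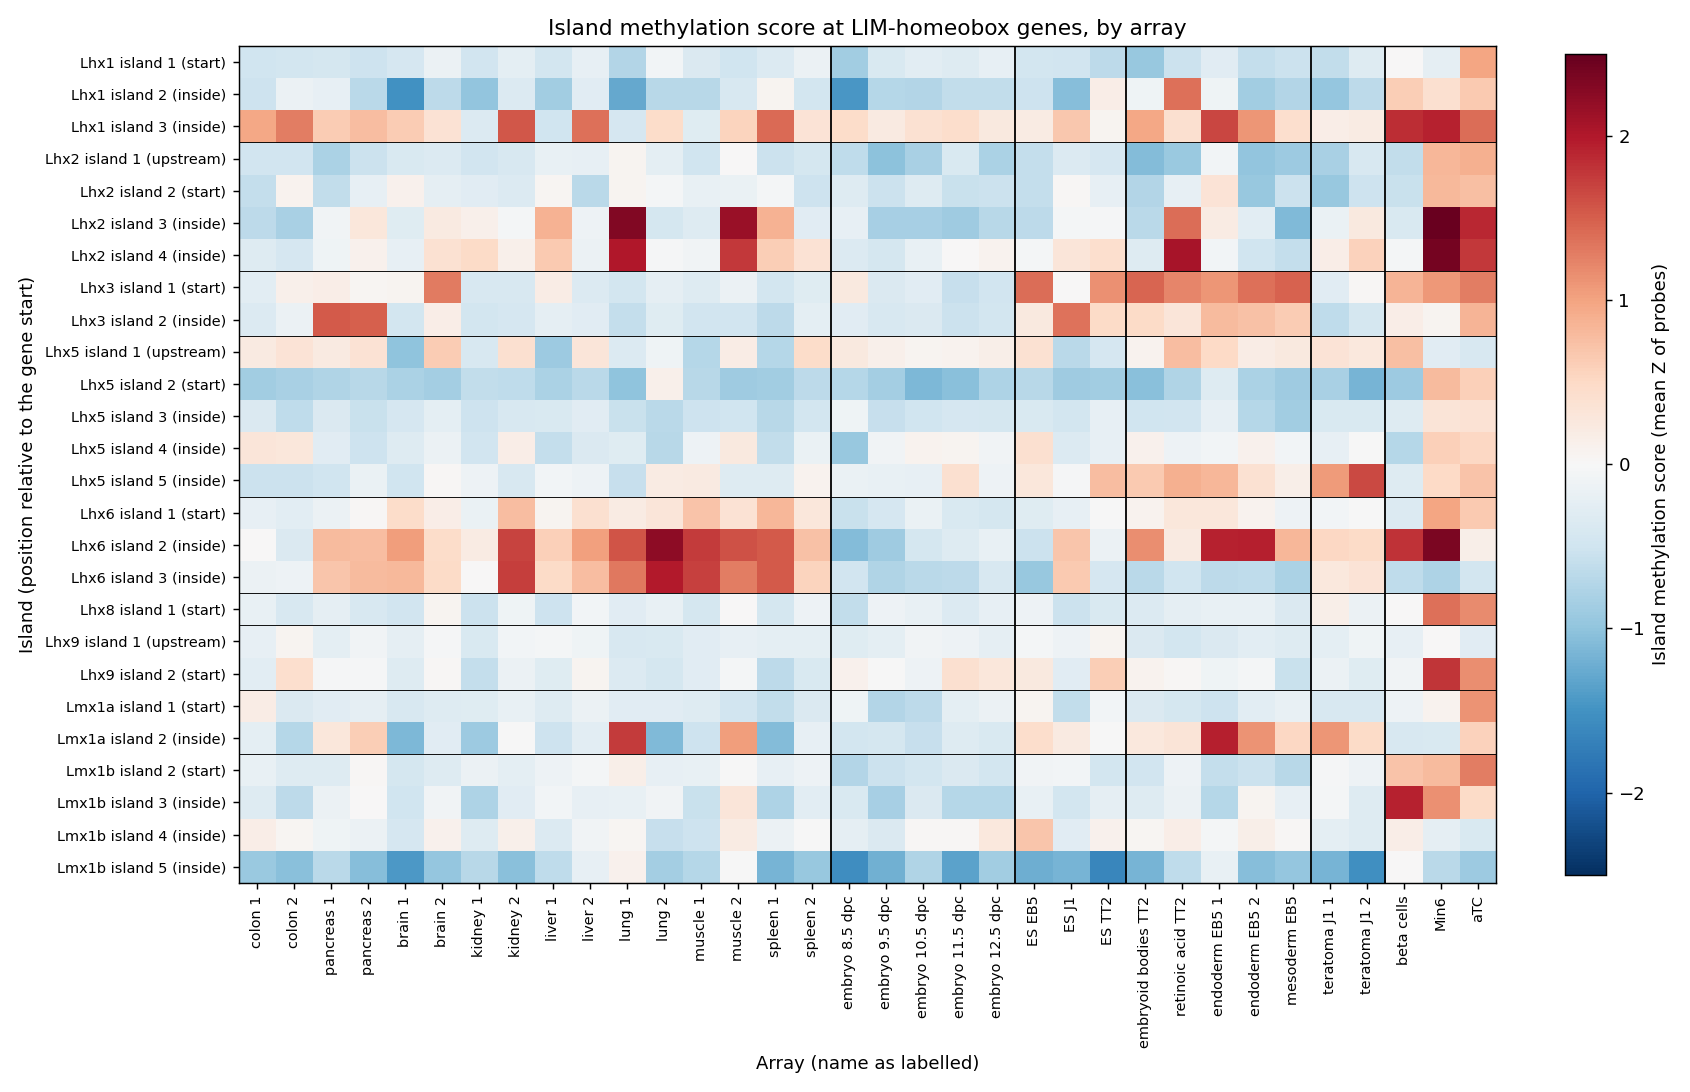
Heat map of the island methylation score (mean Z of an island's probes, colour scale) of the 26 islands (rows, with their position relative to the gene start) on the 34 arrays (columns, named as labelled; vertical lines separate adult tissue, embryos, undifferentiated ES cells, differentiated ES cells, teratomas and pancreatic cells). The Lhx3 start row is red in EB5, TT2 and all 5 differentiated arrays, the rows of Lhx6 islands 2 and 3 in most adult arrays, and the Min6 and aTC columns across much of the family.

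In tissue, where a score averages over all cell types of the sample, most member islands had mean scores below 0, as did most islands of the array. The mean score lay below 0 at 20 of 26 islands in adult tissue and at 23 of 26 in embryos, beside 71.5% and 67.4% of all islands. No member island passed 0.75 on any embryo array (where 11.5%, 11.8%, 9.37%, 9.97% and 11.8% of all islands did, from 8.5 to 12.5 dpc), beside 13.5% of all islands on at least 1 of the 5. At least 1 of the 16 adult arrays passed it at 9 members (20.6% of all islands), at least 1 of the 3 arrays of undifferentiated ES cells at 3 (15.1%) and at least 1 of the 5 of differentiated ES cells at 10 (22.0%), counts that also rest on different numbers of arrays. The family was not of 1 piece: over 20 conditions the correlation between pairs of member islands ran from -0.79 to 0.96 with a median of 0.24, given as a description of conditions that share arrays' scaling.

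Differentiated ES cells were set against adult tissue to ask which islands differ in methylation between cultured cells and tissue. By limma with Benjamini-Hochberg adjustment over all islands (adjusted p under 0.05), 6 of the 26 islands were called, 3 higher (Lhx3 island 1, Lhx5 island 5 and Lmx1a island 2) and 3 lower (Lhx6 island 3, Lmx1b island 2 and Lhx2 island 1), or 23.1% beside 23.0% of all islands (14.4% higher and 8.54% lower). The share of the family is that of the background, and the median difference was -0.014 for the members and -0.010 over all islands. Against embryos the same 5 arrays were higher at 6 islands and lower at none (Lhx3 islands 1 and 2, Lhx5 island 5, Lhx6 islands 1 and 2, Lmx1a island 2), beside 21.3% of all islands called, 11.7% higher and 9.60% lower. Here the median difference was 0.20 for members and -0.046 over all islands. Embryos against adult tissue gave 4 calls, all lower in embryos (the 3 Lhx6 islands and Lmx1b island 2), where 7.61% of all islands were called, 3.08% lower and 4.52% higher. These comparisons share arrays and are not independent of each other.

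Undifferentiated ES cells gave 1 call against adult tissue, Lhx3 island 1, beside 2.34% of all islands (1.00% higher, 1.34% lower), and without the array labelled J1 4 calls (Lhx3 island 1, Lhx5 island 5, Lhx6 island 3 and Lhx9 island 2), beside 8.70%. Leaving out EB5 or TT2 instead left none, with no share of all islands given. Differentiated against undifferentiated ES cells gave no call, with J1 (5.41% of all islands called, 3.37% higher and 2.04% lower) or without it (3.68%), while 3 members had an unadjusted p under 0.05, and the methods' t-test with the same adjustment also gave none. Teratomas, with 2 arrays, gave 1 call against adult tissue (Lhx5 island 5, beside 0.176% of all islands, 0.168% higher and 0.00732% lower) and 2 against differentiated ES cells (Lhx3 island 1 lower and Lhx5 island 5 higher, beside 6.87% of all islands, 5.32% lower and 1.56% higher).

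Slides and scan days were shared unevenly. Embryo and adult arrays shared neither a slide nor a scan day, nor did teratomas share one with any other group, so batch and group cannot be told apart in those comparisons. Differentiated ES arrays shared neither with embryos nor with undifferentiated ES cells. The same limit therefore holds there, also for each differentiated array set against its parent line. Differentiated and adult arrays met on 2 slides, and with the slide as a block 1 of the 6 calls remained, Lhx3 island 1 (difference 0.68, adjusted p = 0.0421); with the scan day as a block Lhx3 island 1, Lhx5 island 5 and Lhx6 island 3 were called and Lhx1 island 1 joined them. Embryos against adult tissue and against differentiated ES cells kept no call under either block. The only link of embryos to the other groups there is the slide that the 8.5 dpc embryo shared with TT2. For these block fits the share of all islands called is not given, so lost calls are not read as particular to the members. Without the 8.5 and 9.5 dpc arrays the calls of embryos against adult tissue fell to 1 (Lhx6 island 3, beside 2.12% of all islands) and those of differentiated ES cells against embryos to 2 (Lhx3 island 1 and Lhx6 island 2, beside 15.8%).

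**Figure D2:**
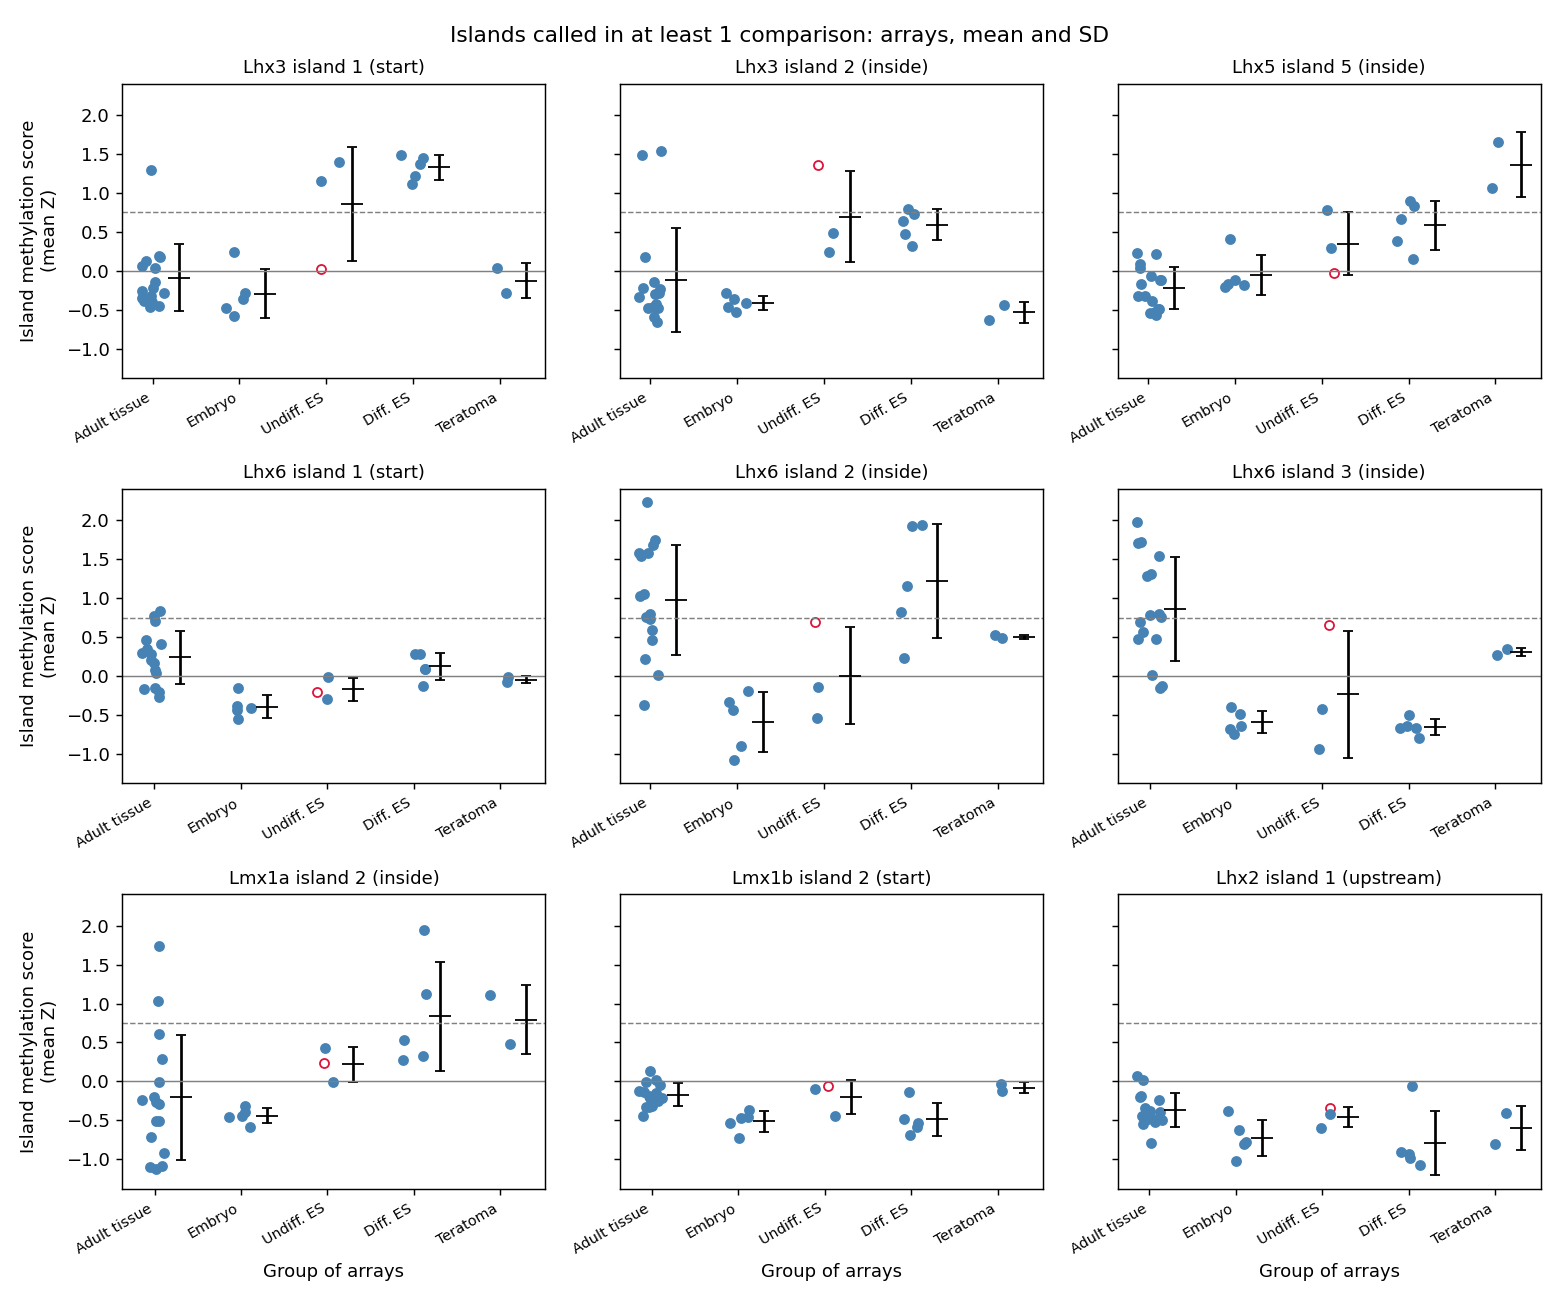
Island methylation score (y axis, mean Z) of the 9 islands called in at least 1 comparison, by group of arrays (x axis). Points are arrays, the open red point is the array labelled J1, black marks are the mean ± SD, the dashed line is 0.75 and the solid line 0. At Lhx3 island 1 the 5 differentiated arrays lie at 1.11 and above and all embryos and teratomas at 0.24 and below, and at Lhx6 island 3 all differentiated and embryo arrays lie below every adult array.

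Lhx3 specifies pituitary cell types and spinal motor neurons. Its start island, probed from 336 bases before to 248 after the annotated start, scored 1.40 in EB5 and 1.15 in TT2, and 1.45 in embryoid bodies, 1.22 in retinoic acid cells, 1.11 and 1.37 in endoderm and 1.48 in mesoderm. The lowest, median and highest of the 16 adult scores were -0.46, -0.24 and 1.29, and the highest, the array labelled brain 2, was the only adult array above 0.75. Embryos scored 0.24, -0.36, -0.29, -0.58 and -0.48 from 8.5 to 12.5 dpc. The ES arrays other than J1 thus stood above all embryos, and above all adult arrays but brain 2. Differentiated ES cells averaged 1.32 ± 0.16 (SD, n = 5) against -0.089 ± 0.43 (SD, n = 16) over the adult arrays (difference 1.41, SE 0.20, adjusted p = 6.12e-06) and -0.29 ± 0.32 (SD, n = 5) over the embryos (difference 1.62, SE 0.25, adjusted p = 3.46e-05).

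The high score was already there before differentiation in both lines. The differentiated arrays differed from their parent lines by -0.29 (endoderm 1 against EB5) to 0.30 (embryoid bodies against TT2). Undifferentiated cells averaged 0.85 ± 0.74 (SD, n = 3) with the array labelled J1, which scored 0.018 (difference 0.94, SE 0.25, adjusted p = 0.0388), and 1.27 ± 0.18 (SD, n = 2) without it (difference 1.36, adjusted p = 0.000923). Within slides, endoderm 2 scored 1.37 beside 0.17 in pancreas 1, and EB5 1.40 beside 0.04 in pancreas 2, while embryoid bodies at 1.45 sat beside brain 2 at 1.29. Teratomas did not carry the high score: their arrays stood at -0.29 and 0.035, below all differentiated arrays (difference -1.45, SE 0.33, adjusted p = 0.00625), a call that rests on both arrays, since no member was called against differentiated ES cells without either one.

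The second Lhx3 island (chr2:26057533-26058887, 12 probes, 3214 to 4521 bases inside the gene) behaved otherwise. The differentiated arrays scored from 0.31 to 0.80 and the embryos from -0.53 to -0.29, without overlap (difference 1.00, SE 0.33, adjusted p = 0.0273), a call lost without endoderm 1, endoderm 2 or the 11.5 dpc embryo (adjusted p = 0.0616, 0.0576 and 0.0548) and with normexp, log2 ratios or slides as a random effect, but against adult tissue the difference missed the threshold (difference 0.71, SE 0.26, adjusted p = 0.0519). By limma it was called higher than adult tissue with the deposited table (difference 0.71, adjusted p = 0.0474) and with 8 tissue means (adjusted p = 0.0474). Leaving the array labelled J1 out of the fit also gave the call (adjusted p = 0.0444). In adult tissue the spread came from 2 arrays: pancreas scored 1.54 and 1.49 and the other 14 adult arrays at most 0.18. It was the only member among 11 islands, 0.0805% of all, called for any difference among the 8 labelled tissues (limma F-test, range of the tissue means 1.99, adjusted p = 0.0248). Pancreas is 1 of the 2 tissues whose replicates were most alike. The array labelled J1 scored 1.35 here, near the pancreas arrays, against 0.24 in EB5 and 0.48 in TT2. Ex vivo beta cells scored 0.16.

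Lhx5 acts in forebrain development, and Lhx1 in the head organiser and the kidney. Of the 5 Lhx5 islands, island 5, furthest from the start (chr5:120889791-120890541, 6 probes, 7909 to 8606 bases inside), was the only one called in any comparison. Teratomas scored 1.07 and 1.65, above every adult array (-0.57, -0.25 and 0.22 as lowest, median and highest; difference 1.59, SE 0.21, adjusted p = 0.00014) and above every differentiated array (difference 0.78, SE 0.24, adjusted p = 0.0441). This call against adult tissue was lost without teratoma replicate 2. Differentiated ES cells scored 0.66 in embryoid bodies, 0.89 with retinoic acid, 0.82 and 0.38 in endoderm and 0.15 in mesoderm, of which only mesoderm fell within the adult range (difference 0.81, SE 0.14, adjusted p = 0.000108). TT2 itself stood at 0.78 and EB5 at 0.29. Embryos averaged -0.054 ± 0.26 (SD, n = 5), with 11.5 dpc at 0.41 and the other 4 below 0; differentiated cells were called higher (difference 0.64, SE 0.18, adjusted p = 0.0106), though not with normexp (adjusted p = 0.149) or the methods' t-test (adjusted p = 0.0514). On the 2 shared slides endoderm 2 scored 0.38 beside -0.49 in pancreas 1, and embryoid bodies 0.66 beside 0.038 in brain 2.

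The Lhx5 start island and island 3 stayed low in tissue and ES cells alike. The start island scored below 0 on 31 of 34 arrays, with a mean of -0.72 ± 0.25 (SD, n = 16) over adult arrays and -0.76 ± 0.26 (SD, n = 5) over differentiated ES arrays; the exceptions were lung 2 at 0.13, Min6 and aTC. Island 3, 3480 to 4554 bases inside, was below 0 on every array but Min6 and aTC. The island upstream, 3918 to 4160 bases before the start, ranged from -1.01 to 0.64 over the adult arrays and scored 0.77 in retinoic acid cells, against -0.42 in TT2. At Lhx1 the start island was below 0 on 32 of 34 arrays (all but aTC, at 0.99, and beta cells, at 0.017). Lhx1 island 3 (chr11:84333591-84333980, 3 probes, 5078 to 5423 bases inside) spread widely over adult arrays, from -0.50 to 1.56, with 6 of 16 above 0.75. Kidney replicates, where Lhx1 is used in development, scored -0.34 and 1.56 there. Those 2 arrays were not most alike to each other. Among ES cells the endoderm arrays scored 1.66 and 1.11 and embryoid bodies 0.97, against 0.20 in EB5 and 0.075 in TT2, and no comparison called the island (adjusted p = 0.411 for differentiated against undifferentiated cells).

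**Figure D3:**
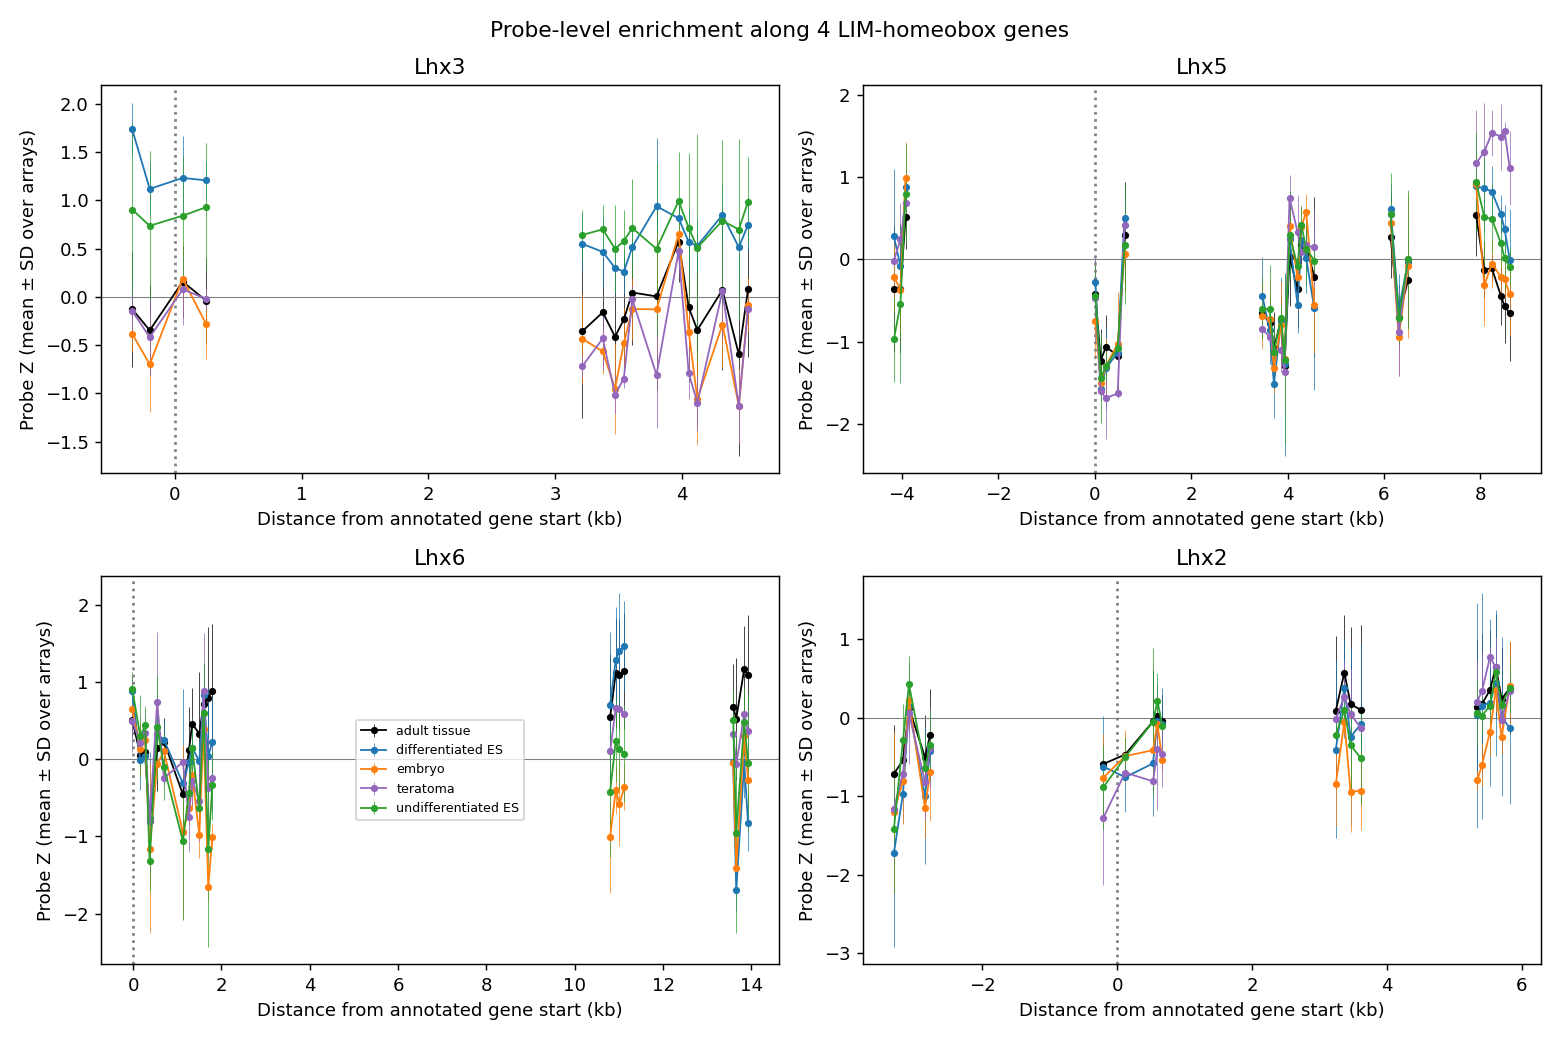
Mean probe Z ± SD over arrays (y axis) against distance from the annotated gene start in kb (x axis; dotted line, start) for Lhx3, Lhx5, Lhx6 and Lhx2, with 1 line per island and group of arrays and only probes that have an annotated distance (adult tissue, n = 16; embryo, n = 5; undifferentiated ES, n = 3; differentiated ES, n = 5; teratoma, n = 2). At all 4 probes of the Lhx3 start the mean of differentiated ES cells lies above those of adult tissue and embryos, and at all 6 probes of the last Lhx5 island the teratoma mean is highest.

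Lhx6 is needed for cortical interneurons and Lhx8, its partner gene, for forebrain cholinergic neurons and for oocytes. All 3 Lhx6 islands were lower in embryos than in adult tissue. Island 3 was annotated partly as inside the gene, at 13589 to 13926 bases, and partly as of unknown place. At island 3, the furthest inside the gene (chr2:35946329-35947224, 7 probes), the lowest, median and highest adult scores were -0.15, 0.78 and 1.98, and embryos ran from -0.74 to -0.40, with no overlap (difference -1.46, SE 0.28, adjusted p = 0.000918). Island 2 (chr2:35949642-35950016, 4 probes) averaged 0.98 ± 0.71 (SD, n = 16) over adult arrays and -0.59 ± 0.38 (SD, n = 5) over embryos (difference -1.56, SE 0.32, adjusted p = 0.00192), and of the colon arrays, at 0.017 and -0.37, the second sat within the embryo range. The start island moved the same way by less, 0.24 ± 0.35 against -0.39 ± 0.15 (difference -0.63, SE 0.14, adjusted p = 0.00471). The adult spread was shared by islands 2 and 3: lung 2 was highest at both (2.23 and 1.98), and the colon arrays lowest. With normexp none of the 3 differences passed the threshold (adjusted p = 0.0996, 0.22 and 0.113 for islands 3, 2 and 1). The call of the start island for differentiated ES cells against embryos (difference 0.52, SE 0.18, adjusted p = 0.0349) was lost without any 1 of 8 of these 10 arrays, with adjusted p from 0.0508 to 0.0802.

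ES cells split these neighbouring islands. At island 3 the 5 differentiated arrays scored -0.67, -0.50, -0.66, -0.64 and -0.79, all below every adult array (difference -1.52, SE 0.28, adjusted p = 0.000129) and near the embryos, with no call against those (difference -0.064, SE 0.34, adjusted p = 0.92). At island 2 the same arrays scored 1.16 (embryoid bodies), 0.23 (retinoic acid), 1.93 and 1.94 (endoderm) and 0.82 (mesoderm), all above every embryo (difference 1.80, SE 0.40, adjusted p = 0.00154) while the difference from adult tissue was not called (difference 0.24, SE 0.32, adjusted p = 0.642). The parent lines stood at -0.53 (EB5) and -0.14 (TT2) at island 2, so that endoderm exceeded EB5 by 2.46 and 2.47, mesoderm by 1.36, embryoid bodies exceeded TT2 by 1.30 and retinoic acid cells by 0.38. Pooled, differentiated against undifferentiated cells at island 2 gave difference 1.21, SE 0.46, adjusted p = 0.119. Without the retinoic acid array, 1 of several arrays left out in turn, the call was made (difference 1.46, adjusted p = 0.0398). The share of all islands called in that fit is not given. The array labelled J1 scored 0.69 and 0.65 at islands 2 and 3, inside the adult range, where EB5 and TT2 were below 0. At island 3 teratomas scored 0.27 and 0.34, inside the adult range and above all embryo and differentiated arrays.

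The single Lhx8 island (13 probes, 490 to 2541 bases inside) was below 0 on 28 of 34 arrays, and apart from Min6 and aTC no score exceeded 0.15, in teratoma 1. No comparison called it.

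Lhx2, a regulator of eye, forebrain and hair follicle development, had 4 islands. Its upstream island (chr2:38203488-38204078, 2771 to 3310 bases before the start) was lower in differentiated ES cells than in adult tissue (-0.79 ± 0.41 against -0.37 ± 0.22; difference -0.42, SE 0.13, adjusted p = 0.0166), with endoderm 1 apart from the other 4 at -0.065; scores were below 0 in nearly all of both groups, and on the slide of endoderm 2 and pancreas 1 they were -0.98 and -0.80. The call was lost without embryoid bodies (adjusted p = 0.0765), endoderm 2 (adjusted p = 0.0641) or mesoderm (adjusted p = 0.0515), and with the filter on dim probes (difference -0.30, adjusted p = 0.121). The start island showed no call. Inside the gene, islands 3 (chr2:38210043-38210461) and 4 (chr2:38212141-38212667) were high on 2 adult arrays, lung 1 at 2.31 and 2.00 and muscle 2 at 2.16 and 1.77, where lung 2 scored -0.43 and -0.027 and muscle 1 -0.33 and -0.10; the next highest adult arrays were spleen 1 and liver 1, at 0.87 and 0.87 for island 3. These are 2 of the arrays most alike to each other across labels, so these islands separate arrays and not the labelled tissues. Among ES cells, retinoic acid stood alone at the same 2 islands, at 1.40 and 2.07, against -0.035 and 0.42 in TT2 and at most 0.21 in the other differentiated arrays; this rests on 1 array and was not tested. At Lhx1 island 2 the retinoic acid array was also highest, at 1.38 against 0.17 in TT2.

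Lhx9, which is needed for gonad formation, had a start island that averaged -0.21 ± 0.27 in adult tissue and 0.14 ± 0.22 in embryos, with EB5 at 0.25, TT2 at 0.62 and the array labelled J1 at -0.29. It was called for undifferentiated cells against adult tissue only without J1 (difference 0.64, adjusted p = 0.0309). The differentiated arrays had lower scores than their parents, from -0.55 (mesoderm) to 0.10 (embryoid bodies), a change of -0.30 to -0.80. The upstream Lhx9 island scored from -0.46 to 0.077 over all 34 arrays.

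Lmx1a, which acts in midbrain dopaminergic neurons and the roof plate, differed at island 2 (chr1:169622254-169622560, 3 probes, 2590 to 2842 bases inside). Differentiated ES cells scored 0.27, 0.33, 1.94, 1.12 and 0.53 (embryoid bodies, retinoic acid, both endoderm arrays, mesoderm), above every embryo (-0.58 to -0.32; difference 1.27, SE 0.41, adjusted p = 0.0244) and on average above adult tissue (-0.21 ± 0.80 (SD, n = 16); difference 1.04, SE 0.33, adjusted p = 0.0209). Adult arrays spread from -1.13 to 1.74 and overlapped all of them but endoderm 1, lung 1 and muscle 2 being the highest. Teratomas scored 1.11 and 0.48. On shared slides endoderm 2 scored 1.12 beside 0.29 in pancreas 1 and embryoid bodies 0.27 beside -0.29 in brain 2. With 3 probes it is among the smallest islands, and both calls depended on the processing and on endoderm. Against adult tissue it was not called with normexp (difference 0.44, adjusted p = 0.235), log2 ratios, the probe median or the methods' t-test, or without endoderm 1 (difference 0.77, adjusted p = 0.113) or endoderm 2 (difference 0.97, adjusted p = 0.063). Against embryos it was not called with normexp (difference 0.34, adjusted p = 0.664), log2 ratios or the probe median, or without endoderm 1, endoderm 2 or the 10.5 dpc embryo (adjusted p = 0.0919, 0.0568 and 0.0511). The Lmx1a start island was below 0 on 30 of 34 arrays.

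Lmx1b patterns the dorsal limb and is needed by podocytes and serotonergic neurons. Some probes of its start island carry the name C130021I20Rik in the array's earlier naming. This island (14 probes, annotated partly as a divergent promoter and partly as inside the gene) was below 0 on 29 of 34 arrays. It was lower in differentiated ES cells (-0.48 ± 0.21; difference -0.31, SE 0.088, adjusted p = 0.0101) and in embryos (-0.51 ± 0.13; difference -0.34, SE 0.088, adjusted p = 0.0149) than in adult tissue (-0.17 ± 0.15). All 3 groups thus lay on the unmethylated side, and with normexp background correction the difference of differentiated cells from adult tissue was 0.013 (adjusted p = 0.923). That call was also lost with the deposited table, the filter on dim probes, the probe median and without mesoderm (difference -0.26, adjusted p = 0.0535), and the one of embryos with the deposited table, normexp, the filter on dim probes and without the 8.5 dpc array (difference -0.28, adjusted p = 0.0795). Islands 3, 4 and 5 were called in no comparison; island 3 averaged -0.29 ± 0.30 in adult tissue and -0.27 ± 0.29 in differentiated ES cells. Island 5, 59554 to 59840 bases inside, was below 0 on 32 of 34 arrays.

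No member was called between the 2 brain arrays and the other 14 adult arrays by limma after adjustment, nor was any of the 13659 islands (0%); 1 member had an unadjusted p under 0.05, Lhx3 island 1 (difference 0.88, SE 0.25, adjusted p = 1), and the methods' t-test likewise left none after adjustment. The brain arrays scored 0.06 and 1.29 there and were each most alike to a liver array, so the labels limit this comparison. Without brain 1 the difference at that island was 1.49, which rests on brain 2 alone.

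The pancreatic lines had the most member islands above 0.75 of all 34 arrays. Min6 scored above 0.75 at 13 of 26 islands and aTC at 12, beside 19.6% and 23.2% of all islands on those arrays, whereas ex vivo beta cells did at 5, beside 12.8%, and no other array at more than 6. Of the 9 start islands 7 passed 0.75 on each line, and 1 in beta cells, Lhx3 at 0.84. Min6 exceeded beta cells by more than 1 at 9 member islands (7.08% of all islands) and was lower by more than 1 at 1 (3.48%); for aTC these were 11 (9.77%) and 3 (4.29%). The median difference from beta cells was 0.24 for Min6 and 0.83 for aTC over the members, and -0.15 and -0.21 over all islands. All 3 arrays were scanned on 1 day and both lines lay on 1 slide. Each is 1 array, so these are differences between arrays with no test. No ex vivo alpha cells were measured, so for aTC, an alpha cell line, cell type and line cannot be told apart.

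The largest differences lay inside Lhx2, where islands 3 and 4 scored 2.47 and 2.39 in Min6 and 1.88 and 1.77 in aTC against -0.38 and -0.051 in beta cells. The whole Lhx2 cluster was high in both lines, with the start island at 0.80 and 0.76 (beta cells -0.56) and the upstream island at 0.84 and 0.89 (beta cells -0.61). Lhx9, the gene paired with Lhx2, scored 1.78 and 1.16 at its start island, 332 to 1035 bases inside the gene (beta cells -0.087). Lhx8 scored 1.38 and 1.18 (beta cells 0.0067), although no other array of the study exceeded 0.15 there. At the Lhx5 start, below 0 in nearly all other arrays, Min6 had 0.79 and aTC 0.59 against -0.91 in beta cells.

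Islands that were already high in beta cells included Lhx1 island 3, at 1.85 beside 1.92 in Min6 and 1.41 in aTC. The Lmx1b start, at 0.71 in beta cells, lay just below the methylated mark there, beside 0.80 in Min6 and 1.28 in aTC. The Lhx6 start was not high in beta cells but on the unmethylated side, at -0.34, beside 0.99 in Min6 and 0.66 in aTC. The 2 lines also differed from each other. At Lhx6 island 2 Min6 scored 2.36, near beta cells at 1.81, and aTC 0.15. At Lhx3 island 2 aTC scored 0.85 and Min6 0.063. The Lhx1 and Lmx1a start islands were high in aTC alone, at 0.99 and 1.12, against -0.22 and 0.085 in Min6. In the other direction, Lmx1b island 3 was higher in beta cells (1.93) than in Min6 (1.14) or aTC (0.47), and so was Lhx5 island 1 (0.76 against -0.28 and -0.40).

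**Figure D4:**
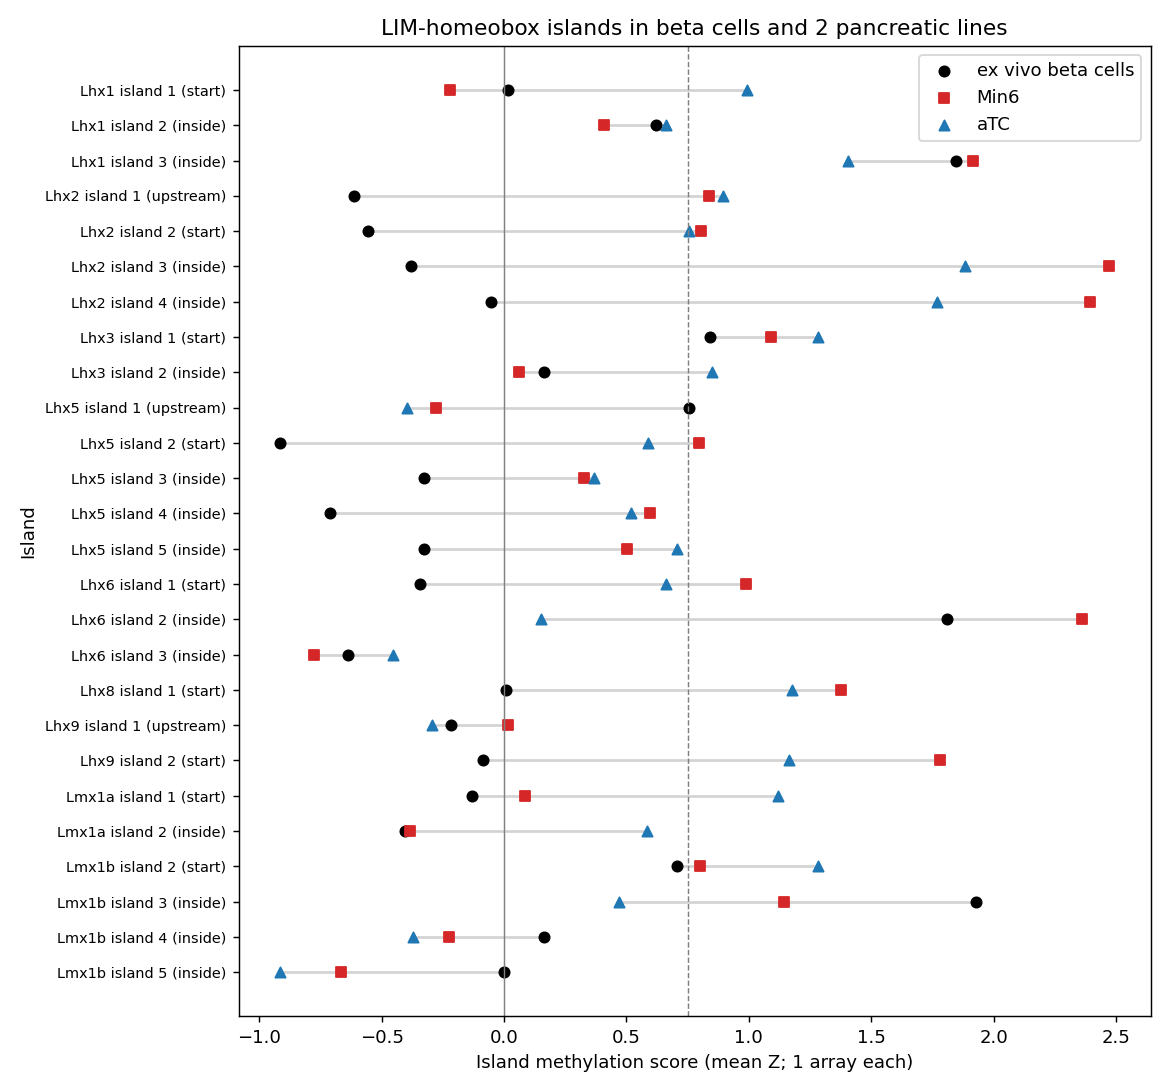
Island methylation score (x axis, mean Z) of the 26 islands (rows, with position relative to the gene start) in ex vivo beta cells (black circles), Min6 (red squares) and aTC (blue triangles), 1 array each; grey lines span the 3 values and the dashed line is 0.75. Both lines lie to the right of beta cells at all 4 Lhx2 islands and at the start islands of Lhx5, Lhx6, Lhx8 and Lhx9. They lie to the left at Lmx1b island 3.

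The list of other genes of the LIM network held Isl1 and Isl2, the LIM-only genes Lmo1 to Lmo4, the Ldb cofactors, the Ssbp proteins that bind Ldb1, and Rlim (Rnf12 on the array), a ubiquitin ligase that acts on Ldb; it gave 15 scored islands, and no probe carried the name Lmo3 or Ldb2. Differentiated ES cells against adult tissue called 2 of 15 (beside 23.0% of all islands), both higher and both below the methylated mark (Lmo1, 0.094 ± 0.20 against -0.33 ± 0.18, and Lmo4, 0.19 ± 0.063 against -0.025 ± 0.094; adjusted p = 0.00167 and 0.029). Against embryos, 1 of 15 was called (beside 21.3%), Isl2 (0.27 ± 0.47 against -0.59 ± 0.14, adjusted p = 0.016). The largest change was at an Ssbp4 island (chr8, 8 probes), which averaged 2.25 ± 0.80 (SD, n = 16) in adult tissue against 0.27 ± 0.74 in embryos (n = 5, adjusted p = 0.00116) and 0.33 ± 1.37 in undifferentiated ES cells (n = 3, adjusted p = 0.0263), the only call of the list in either comparison (beside 7.61% and 2.34% of all islands). None was called for teratomas, for differentiated against undifferentiated cells, for brain or among tissues.

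Outside the family, the islands whose 20 condition means followed the mean of the member islands most closely were those named Six2 (r = 0.95), Nid2 (r = 0.935), Nkx6-2 (r = 0.935), Cebpa (r = 0.935) and Chrm4 (r = 0.928). These correlations describe conditions that share the arrays' scaling, and the mean is led by Min6 and aTC.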

How the data were processed

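Methylated DNA was measured by mDIP on 2-colour Agilent CpG island arrays. Per the file headers, spots were read with Agilent Feature Extraction (10.5.1.1, 10.7.3.1, 10.9.1.1 or 9.5.3.1), which subtracted background and normalised dyes linearly. The deposited scanner files hold log10 ratios of bound over input and median signal intensity per spot, and the authors also deposited a table of Z scores per probe, used here as an alternative. The build is mm9 in the headers of 6 files and is not given for the others. Log ratios of the 88737 probes on both array designs were standardised per array, and probes with gaps of at most 500 bases were averaged into islands of at least 3 probes. Islands were tested with limma 3.58.1 in R 4.3.3 over all 13659 islands with Benjamini-Hochberg adjustment at 0.05; adult tissue, embryos and both ES groups entered 1 fit of 29 arrays, with teratomas added to 31, and the 16 adult arrays had a fit of their own. The procedure was tested on simulated data. Scores, figures and tables were made with Python 3.11.15. Samples were grouped by their labels. Alternatives were the deposited table, normexp (offset 50, on median signals), a filter on dim probes, probe medians, a 5-probe minimum, a 300-base gap, single gene names, log2 ratios, autosomal Z, slide, scan day and replicate blocks, 2-group fits, tissue means, the methods' t-test and leaving out arrays. Every scored island of the 10 genes was described, with values per array where it was called or passed 0.75 in cultured cells, and the 5 gene names with the closest pattern were named. Members and gene lists were chosen with earlier results of these data known. Member probes had input signals 2.76 to 7.46 times background, and the number of arrays limits precision.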

Additional observations from a re-analysis of the deposited data

Results flagged for a closer look

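Of 52 groups of 4 to 10 arrays, 6 had 1 array farther from the others than Dixon's 95% critical value allows. Chance flags about 1 in 20 groups of like arrays. The arrays here differ in stage, line or treatment, and the islands share arrays, so that rate does not apply. The 8.5 dpc embryo scored -0.868 at Lhx1 island 1 (the other embryos -0.39 to -0.21), -1.46 at Lhx1 island 2 (-0.74 to -0.61) and -0.955 at Lhx5 island 4 (-0.091 to 0.095). The 11.5 dpc embryo stood out high at Lhx5 island 5, at 0.409 (the others -0.21 to -0.12). Among differentiated ES cells, endoderm 1 scored -0.0648 at Lhx2 island 1 (the others -1.08 to -0.91), and the retinoic acid array 2.07 at Lhx2 island 4 (the others -0.60 to -0.068).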

How the results depend on the processing

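Of the values per island and alternative, 4048 kept their direction and their side of the threshold, 104 lost a call, 25 gained one and 1 changed sign (Lmx1b island 2 in differentiated ES cells against adult tissue, 0.013 with normexp). For differentiated ES cells against adult tissue the main 6 calls became 2 with the deposited table, where 8 member islands could be scored, and 1 with the slide as a block, and were 4 to 6 with 1 array left out. Against embryos the 6 calls became 3 with the deposited table, with at least 5 probes and with log2 ratios, 1 with normexp, 0 with slide or scan day as a block, and 2 without the 8.5 and 9.5 dpc embryos, an alternative chosen after seeing the data; leaving out 1 array gave 3 (without endoderm 1) to 6. For embryos against adult tissue the 4 calls became 1 with the deposited table and without those embryos, 0 with normexp or either block, and 3 to 4 with 1 array left out. For undifferentiated ES cells against adult tissue the 1 call became 0 with normexp, at least 5 probes, log2 ratios, only both groups in the fit, the scan day as a block and the methods' t-test, 2 with the filter on dim probes and with 8 tissue means, and 0 to 4 with 1 array left out. Differentiated against undifferentiated cells gave 1 call with the dim filter, 1 with slides as a random effect and 0 to 2 with 1 array left out. For teratomas, the call against adult tissue became 0 without teratoma 2 (0 to 1), and the 2 calls against differentiated cells became 0 with the deposited table and the methods' t-test, 1 with the probe median, at least 5 probes and slides as a random effect, and 0 to 3 with 1 array left out. With 1 teratoma or brain array left, that array is assumed to vary like the other groups. Brain gave 0 to 1, and the call among tissues became 0 with normexp. The causes of these changes were not tested; the deposited table, the dim filter and the 5-probe minimum score fewer member islands (8, 15 and 15 of 26). Slide and scan day could not be fitted as blocks for teratomas, and the log2 scale has no 0.75 mark. Leaving the array labelled J1 out of the fit, also chosen after seeing the data, gave 7 calls for differentiated ES cells against adult tissue. Shares of all islands are not given for most of these alternatives, so changed counts are not read as particular to the members.

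Counts of member islands above 0.75 moved as follows. The deposited table, the dim filter and the 5-probe minimum scored fewer member islands, as given above. A lower count there is therefore not by itself a lower share, and shares of all islands are not given. With the deposited table they were 3 in Min6, 5 in aTC, 2 in endoderm 1, 1 in TT2 and in retinoic acid cells, and 0 in beta cells, EB5, J1, embryoid bodies, mesoderm and endoderm 2. With normexp they were 3 in beta cells, 1 in TT2, and 0 in J1 and mesoderm. With the dim filter they were 6 in Min6, 2 in beta cells, J1, endoderm 1 and endoderm 2, 3 in retinoic acid cells and 1 in TT2. With the probe median they were 3 in EB5 and 1 in TT2. With at least 5 probes they were 1 in beta cells and TT2, 2 in retinoic acid cells and endoderm 1, and 0 in EB5, embryoid bodies, mesoderm and endoderm 2. With the replicate number as a block, calls stayed at 0 for brain and 1 among tissues; same-numbered adult arrays deviated together only in part (r from -0.25 to 0.61, 13 of 28 pairs above 0.1), so the numbers were not taken to pair samples. Median input signal was 3.05 to 7.34 times background and that of member probes 2.76 to 7.46, which limits how small a difference can be seen.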
